A study of Mus musculus with 9 samples.

Results

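The 9 TNF receptor superfamily genes Tnfrsf1a, Tnfrsf1b, Fas, Cd40, Tnfrsf10b, Ltbr, Tnfrsf11a, Tnfrsf12a and Tnfrsf21 were followed by RiboSeq in LPS-stimulated mouse macrophages. They were found by name among the 16921 genes of the deposited table. The names were set with earlier results of these data known, and the rule itself uses no measured value. All 9 genes reached the fitted mean of 10 that was required for testing. RiboSeq sequences the mRNA fragments that ribosomes protect from nuclease, so that a gene's footprint count depends both on the amount of its mRNA and on how many ribosomes sit on it. With RiboSeq alone, more mRNA and more translation per mRNA cannot be told apart.

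The cells were bone marrow-derived macrophages from TTP-deficient mice that had been immortalized with the oncogenes hcmyc and hRasG12V and selected for the surface markers CD11b and F4/80. TTP (tristetraprolin, gene Zfp36) is an RNA-binding protein that destabilizes AU-rich mRNAs and restrains their translation. The lines carried a doxycycline-inducible vector for GFP alone, for GFP–TTP or for GFP–TTP-AA, in which both serines phosphorylated by the kinase MK2 are replaced by alanine. All cells, the GFP-only controls included, received doxycycline (1 μg/ml) for 6 h and LPS (1 μg/ml) for 1 h. Each of the 3 conditions was 1 separately transduced and GFP-sorted line with 3 libraries, so that line and construct cannot be told apart. The bone marrow came from 6-week-old mice.

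Receptors of this superfamily bind trimeric ligands of the TNF family at the cell surface. A first branch carries a cytoplasmic death domain through which it recruits the adaptors TRADD or FADD and, depending on the complex formed, activates NF-κB, caspases or necroptosis. Another branch binds TRAF adaptors directly and signals mainly to NF-κB and MAP kinases. In macrophages these receptors are known for autocrine TNF signalling after LPS, for responses to T cell CD40 ligand and, through Tnfrsf11a, for osteoclast differentiation.

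Fitted sums of footprints per library lay between 2570292 and 12804501, and size factors between 0.416 and 2.14. The deposited table was found to hold values fitted by the authors' model, not observed counts. A term for the construct and one for the replicate number accounted for each gene's log2 values up to a residual SD of 1.64e-15. The 3 values of a condition therefore show how the fitted level differs between replicate numbers, a pattern that is shared by all 3 conditions, and not the observed scatter of the libraries. The error of a fold change was the standard error (SE) in the authors' comparison tables. Zfp36 had a level of 460 in the GFP-only controls, which rose to 929 where GFP–TTP was expressed and to 1529 where it was GFP–TTP-AA, and was thus also higher in GFP–TTP-AA than in GFP–TTP cells (log2 fold change 0.72, SE 0.25, Wald adjusted p = 0.0427). The part of this difference in the results below was not tested.

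Of the macrophage markers, 7 of 8 were in the table and their summed level was 76396 to 95438 in GFP-only, 57978 to 71979 in GFP–TTP and 84961 to 107502 in GFP–TTP-AA libraries. Emr1, which encodes F4/80, had levels of 3671, 2296 and 5319 in this order of conditions, and Itgam, which encodes CD11b, had 2973, 3195 and 3176. Of the 6 macrophage markers tested 3 (Emr1, Fcgr1 and Lyz2) were lower in GFP–TTP than in GFP-only cells, beside 1.29% of all genes tested. The same 3 were higher in GFP–TTP-AA than in GFP–TTP cells, beside 5.39% of all genes tested. Of the T cell and NK cell markers 3 of 7 were in the table, with summed levels of at most 0.786, and of the B cell markers 2 of 5, with at most 0.755. The 4 of 5 dendritic cell markers in the table summed to 3.47 to 4.45 and the 4 of 6 fibroblast and stroma markers to 2.49 to 2.89. The 3 of 6 granulocyte markers summed to 23.2 to 41.8 in GFP-only, 21.9 to 39.4 in GFP–TTP and 45.5 to 83.9 in GFP–TTP-AA libraries. Nearly all of this was S100a8, at geometric means of 27.1, 25.7 and 55.6, while Mpo stood at 0.123 to 0.127 and Csf3r at 1.77 to 2.0. Levels of some macrophage markers and of the granulocyte marker S100a8 thus differed between conditions, and their part in the results on receptors was not tested.

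TTP is known to bind UAUUUAU in 3′UTRs, which is TATTTAT in DNA letters. The annotated 3′UTRs of 4 of the 9 receptors hold this motif on their transcribed strand, beside 27.8% of the 9822 3′UTRs of the kept genes (GENCODE vM21, GRCm38, the longest coding transcript of each gene). The 6 sites are given because they are the places in these mRNAs that match the letters TTP is known for. Each is shown 5′ to 3′ on the strand of the gene with the motif in capitals and 11 flanking bases on either side.
Cd40, chr2:165071255-165071283, plus strand: aaatctgtaatTATTTATacaatgacatc
Tnfrsf10b, chr14:69782689-69782717, plus strand: tattattgtatTATTTATattattactgt
Tnfrsf10b, chr14:69783498-69783526, plus strand: taattttttatTATTTATtttcttcattc
Tnfrsf10b, chr14:69783777-69783805, plus strand: ttttaattaggTATTTATttcatttaaat
Tnfrsf11a, chr1:105845093-105845121, plus strand: ccccacccccaTATTTATtattcacttgc
Ltbr, chr6:125306604-125306632, minus strand: aacgacaagtgTATTTATgagttgtaatc

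The motif starts at nucleotide 353 of the 3′UTR in Cd40, at 134, 943 and 1222 in Tnfrsf10b, at 238 in Tnfrsf11a and at 609 in Ltbr, counted from 1 after the stop codon. These letters were not found in the annotated 3′UTRs of Tnfrsf1a (490 nt), Fas (448 nt), Tnfrsf12a (215 nt), Tnfrsf21 (1217 nt) and Tnfrsf1b (2324 nt). The shorter ATTTA, which every TATTTAT contains, occurred in 6 of the 9 receptors and in 66.7% of all these 3′UTRs, and 3 receptors (Tnfrsf1a, Fas and Tnfrsf12a) had none. A match of letters is a description of the annotated sequence and shows no binding, and a missing match does not show that binding is absent. By iCLIP (sequencing of RNA crosslinked to TTP) in these cells, the authors counted Tnfrsf1a, but not Fas, among the TTP targets.

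Levels of different receptors were compared per kb of coding sequence. In GFP-only macrophages Tnfrsf1b, which encodes TNFR2, the TNF receptor without a death domain, was highest at 789 per kb and made up 38.9% of the summed level of the 9 genes. Tnfrsf1a, which encodes the death domain receptor TNFR1, followed at 348 per kb, so that Tnfrsf1b lay 2.27-fold above it. Tnfrsf12a (the TWEAK receptor Fn14) had 269 per kb, Tnfrsf10b (the mouse TRAIL receptor) 220, Fas (the receptor of Fas ligand) 155 and Tnfrsf11a (RANK, the receptor of RANK ligand) 124. The library ranges of these 4 neighbouring genes overlapped along this order, while Tnfrsf1a lay above Tnfrsf12a in all libraries. Ltbr (the lymphotoxin β receptor) had 78.4 per kb, Cd40 (the receptor of CD40 ligand) 34.7 and Tnfrsf21 (death receptor 6) 12.8, and none of these ranges overlapped with the next. Library ranges here and below are those of fitted values and do not show the observed scatter of the libraries.

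The order changed in few places between conditions. In GFP–TTP expressing macrophages Tnfrsf12a (312 per kb) stood above Tnfrsf1a (265 per kb), with overlapping library ranges, and Tnfrsf21 fell to 6.47 per kb. In GFP–TTP-AA expressing macrophages Fas moved up to the place after Tnfrsf1a at 273 per kb, its range overlapping with that of Tnfrsf12a (237 per kb). The ratio of Tnfrsf1b to Tnfrsf1a per kb was 2.79 in the cells with GFP–TTP and 2.29 in those with GFP–TTP-AA. The highest receptor exceeded the lowest 61.6-fold in GFP-only, 114-fold in GFP–TTP and 57.1-fold in GFP–TTP-AA cells.

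**Figure D1:**
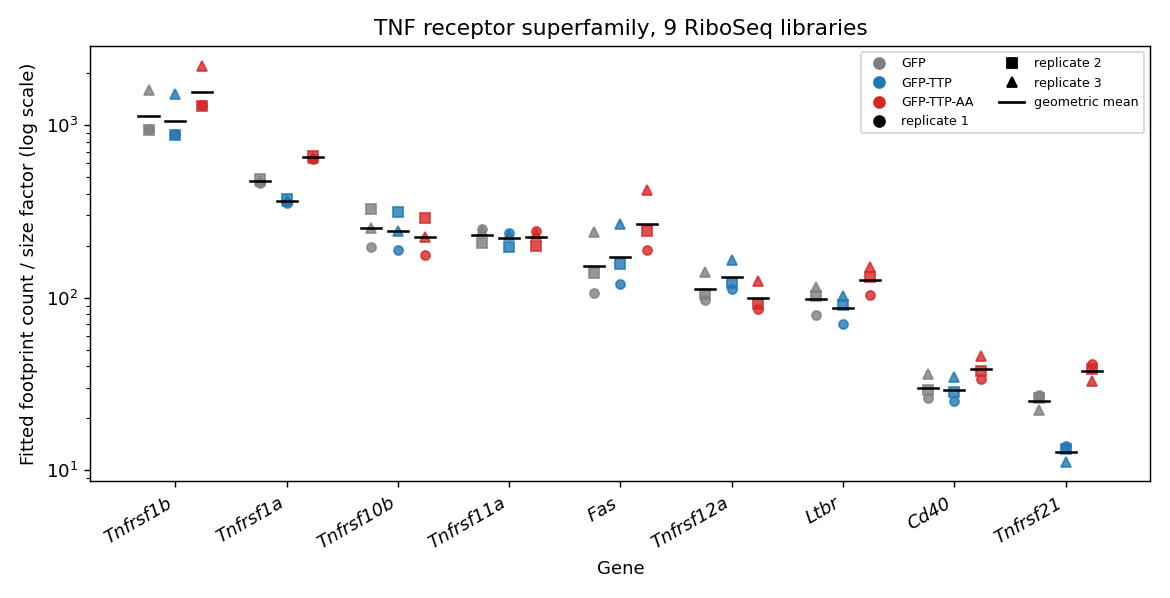
Levels of the 9 receptors (fitted footprint count divided by the size factor, log axis) in the 9 libraries, coloured by condition with a symbol per replicate number and a bar for the geometric mean of 3 libraries. The symbols keep the same pattern in every condition because the values are fitted. At Tnfrsf21 and Tnfrsf1a the fitted values of the conditions do not overlap, which does not show observed scatter.

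Whether TTP or its mutant changed the footprints of these receptors was asked in 3 comparisons, which share libraries and are therefore not independent. The test divided each log2 fold change by its SE and used the Wald p-value with Benjamini-Hochberg adjustment over all genes tested. When GFP–TTP cells were set against GFP-only cells, 1 of the 9 receptors passed the threshold of 0.05. It was Tnfrsf21, which was lower. Over all 9938 genes tested 2.09% passed, 0.805% higher and 1.29% lower. The median log2 fold change of the receptors was -0.07, beside 0.00306 over all genes. Of the 9 receptors 2 were above 0, beside 50.6% of all genes.

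When GFP–TTP-AA cells were set against GFP-only cells, Fas was the single receptor past the threshold, and it was higher. Of 10102 genes 3.11% passed in this comparison, 1.7% higher and 1.41% lower. The receptors had a median log2 fold change of 0.38 with 6 of 9 above 0, beside -0.00409 and 49.4% above 0 over all genes. Without adjustment 4 of the 9 receptors had a p under 0.05, beside 14.2% of all genes.

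In GFP–TTP-AA against GFP–TTP macrophages 3 of the 9 receptors were higher, Tnfrsf21, Tnfrsf1a and Fas, and none was lower past the threshold. This was also the comparison of the 3 with most genes past the threshold, as 10.3% of 10102 genes passed, 5.39% higher and 4.9% lower. The median of the receptors was 0.55 with 7 of 9 above 0, beside -0.00497 and 49.2% above 0 over all genes. Unadjusted p-values were under 0.05 for 6 of the 9 receptors and for 22.2% of all genes.

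**Figure D2:**
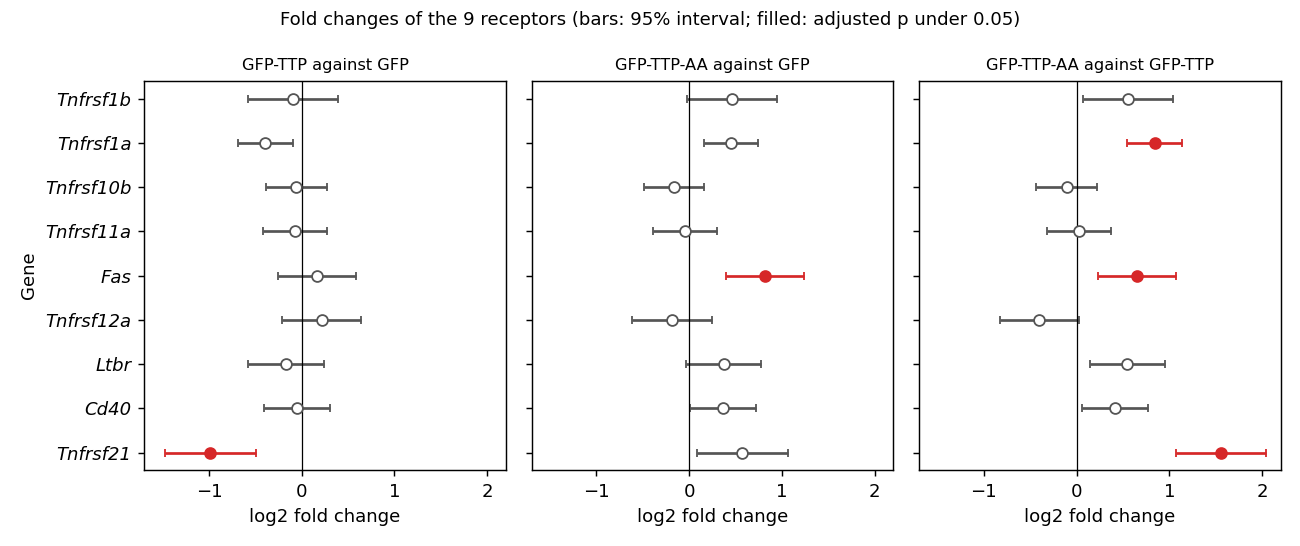
Log2 fold changes of the 9 receptors in the 3 comparisons, with bars for the 95% interval (log2 fold change and its SE), filled red where the adjusted p is under 0.05. The authors' model pulls these values towards 0, and the bars do not bound the sizes before that. Tnfrsf21 lies below 0 in the left panel and farthest above 0 in the right panel, at 1.56, and Fas is the filled point in the middle panel.

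Of the 4 receptors with a death domain, 3 passed the threshold in GFP–TTP-AA against GFP–TTP cells, and 0 of the 5 TRAF-binding receptors without one did, beside 10.3% of all genes. In each of the other comparisons the counts were 1 of 4 and 0 of 5. In GFP–TTP-AA against GFP–TTP cells the log2 fold changes of those with a death domain ran from -0.11 to 1.56 (median 0.75). Those of the receptors without one ran from -0.40 to 0.56 (median 0.41), and these ranges overlapped. In GFP–TTP-AA against GFP-only cells the medians were 0.51 and 0.36. The difference between the branches was not tested, and the split of the receptors into branches was not among the planned results.

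Tnfrsf21 encodes death receptor 6, a death domain receptor known from neurons and lymphocytes. Its levels in the libraries 1, 2 and 3 were 27.5, 26.2 and 22.3 in GFP-only, 13.9, 13.3 and 11.2 in GFP–TTP and 41.0, 38.8 and 33.0 in GFP–TTP-AA macrophages. The fitted values of the 3 conditions did not overlap, which does not show the observed scatter of the libraries. Per kb of coding sequence the gene was the lowest of the 9 in every condition. GFP–TTP cells had 1.98-fold less than GFP-only cells (log2 fold change -0.99, SE 0.25, Wald adjusted p = 0.00654). GFP–TTP-AA cells had 2.94-fold more than GFP–TTP cells (1.56, SE 0.25, Wald adjusted p = 5.82e-08), and 99.6% of all genes tested had a smaller log2 fold change. Against GFP-only cells the difference of 0.57 (SE 0.25) did not pass the adjustment (Wald adjusted p = 0.229). Its fitted mean of 25.2 is under the stricter minimum of 50, at which it is not tested.

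Tnfrsf1a encodes TNFR1, which recruits TRADD and RIPK1 on binding of TNF. Its levels were 462, 488 and 475 in GFP-only, 351, 372 and 362 in GFP–TTP and 635, 665 and 648 in GFP–TTP-AA macrophages. Again the fitted values of the conditions did not overlap, and the replicate numbers differed by only 1.05-fold. Neither shows the observed scatter of the libraries. The level was 1.80-fold higher in GFP–TTP-AA than in GFP–TTP cells (log2 fold change 0.84, SE 0.15, Wald adjusted p = 2.45e-06). GFP-only cells lay between them, and neither difference from GFP-only passed the threshold. The log2 fold change was -0.39 (SE 0.15) for GFP–TTP, with a Wald adjusted p of 0.215, and 0.45 (SE 0.15) for GFP–TTP-AA, with a Wald adjusted p of 0.0707.

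Fas encodes the receptor that recruits FADD and caspase-8 on binding of Fas ligand. Its levels were 107, 139 and 239 in GFP-only, 119, 157 and 268 in GFP–TTP and 189, 244 and 420 in GFP–TTP-AA macrophages. The library ranges of all 3 conditions overlapped, because library 3 was the highest in each of them. Within a replicate number the GFP–TTP-AA library was always highest, which the fitted values fix for all 3 numbers alike. The level was 1.76-fold higher than in GFP-only cells (log2 fold change 0.82, SE 0.21, Wald adjusted p = 0.0092) and 1.57-fold higher than in GFP–TTP cells (0.65, SE 0.21, Wald adjusted p = 0.0288). Between GFP–TTP and GFP-only cells the log2 fold change was 0.17, with a 95% interval from -0.25 to 0.59. Fas is on chromosome 19, whose tested genes had a median of 0.18 on the log2 scale in this last comparison, and with the chromosome median taken off the value was -0.00865.

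Tnfrsf10b, the remaining death domain receptor and the one with 3 TATTTAT sites, had levels of 196, 325 and 254 in GFP-only, 188, 313 and 243 in GFP–TTP and 176, 289 and 226 in GFP–TTP-AA macrophages. The fitted values of the conditions overlapped almost fully, which does not show the observed scatter of the libraries. Its log2 fold change in GFP–TTP-AA against GFP–TTP cells was -0.11, with a 95% interval from -0.43 to 0.22.

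Among the TRAF-binding receptors Tnfrsf1b had levels of 947, 936 and 1604 in GFP-only, 887, 879 and 1503 in GFP–TTP and 1312, 1287 and 2206 in GFP–TTP-AA macrophages. The ranges of the fitted values overlapped and library 3 was the highest in each condition, which does not show observed scatter. The log2 fold change was 0.46 (SE 0.25, Wald adjusted p = 0.392) in GFP–TTP-AA against GFP-only cells and 0.56 (SE 0.25, Wald adjusted p = 0.147) against GFP–TTP cells. The interval of the latter ran from 0.07 to 1.04. The value of Tnfrsf1a in the same comparison, 0.84, lies within it.

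Ltbr, which activates non-canonical NF-κB signalling, had levels of 79.3, 102 and 116 in GFP-only, 70.3, 90.7 and 103 in GFP–TTP and 103, 132 and 150 in GFP–TTP-AA macrophages. Its log2 fold change in GFP–TTP-AA against GFP–TTP cells was 0.55 (SE 0.21), and the Wald adjusted p of 0.069 was just over the threshold. Cd40, a co-stimulatory receptor of antigen-presenting cells, had 26.1, 29.2 and 36.0 in GFP-only, 25.2, 28.3 and 34.8 in GFP–TTP and 33.8, 37.5 and 46.2 in GFP–TTP-AA macrophages. Its value of 0.41 (SE 0.18) in the same comparison did not pass either (Wald adjusted p = 0.141).

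Tnfrsf11a and Tnfrsf12a did not pass in any comparison. Tnfrsf11a lay between 197 and 249 in all 9 libraries, and its log2 fold changes were between -0.07 and 0.03. The 95% interval in GFP–TTP-AA against GFP–TTP cells ran from -0.32 to 0.37. Tnfrsf12a had a geometric mean of 113 in the controls, 131 after GFP–TTP and 99.4 after GFP–TTP-AA expression. The ranges of its fitted values overlapped, which again does not show observed scatter. It was the receptor with the lowest log2 fold change in GFP–TTP-AA against GFP–TTP cells, -0.40 (SE 0.22, Wald adjusted p = 0.265).

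The model of the authors pulls log2 fold changes towards 0, the more so the noisier the gene. From the SE, relative to the largest SE of 0.25, the share of a change that this leaves was estimated, which gives a lower and a higher solution for each gene. In GFP–TTP-AA against GFP–TTP cells it was either 46.3% or 53.7% for Tnfrsf21, either 23.9% or 76.1% for Fas and either 10.3% or 89.7% for Tnfrsf1a. The SE was below its largest value for some genes with few counts and for some with many. It was 0.19 for Mertk (fitted mean 4.94) and 0.12 for Lyz2 (fitted mean 60756). The fitted means of Tnfrsf1a and Fas were 495 and 209. Which solution holds was not tested for any gene. Where genes are ordered by log2 fold change in this text, the order is that of the shrunken values. The sizes before shrinkage were not ranked between receptors.

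In the fitted values the replicate number acts where the authors' model names a library date. The range between replicate numbers was 1.16 on the log2 scale for Fas (2.24-fold), more than its largest difference between conditions (0.82), and 99.4% of kept genes had a smaller range. Tnfrsf1b had a range of 0.78 and Tnfrsf10b of 0.73, beside a median of 0.29 over the kept genes. In 6 of the 9 receptors the range exceeded the largest difference between conditions, which is a shrunken value, and the same held for 53.5% of the kept genes. Tnfrsf1a (0.08) and Tnfrsf21 (0.31) were 2 of the exceptions, and Ltbr was the other. Replicate number 3 was highest for 5 of the 9 receptors and for 35.2% of the kept genes. No error of these terms was used here, and they were not tested.

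**Figure D3:**
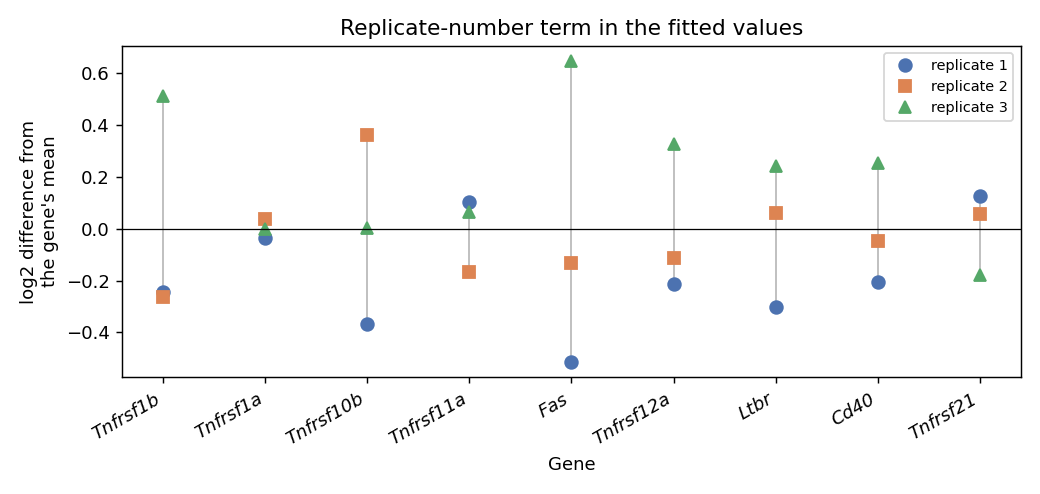
Replicate-number term of each receptor as the log2 difference from the gene's mean, with a symbol per replicate number and a line over the range. Fas spans 1.16 between replicates 1 and 3, whereas Tnfrsf1a spans 0.08.

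In GFP–TTP-AA against GFP–TTP cells 3 of the 5 receptors without TATTTAT in the annotated 3′UTR passed the threshold, beside 10.9% of all genes without it. Of the 4 receptors with the motif 0 passed, beside 8.93% of all genes with it. The 4 receptors with the motif had log2 fold changes from -0.11 to 0.55 (median 0.22), and the 5 without it from -0.40 to 1.56 (median 0.65). Over all kept genes the medians were -0.05 for 2733 genes with the motif and 0.01 for 7089 genes without it. The difference between the receptors with and without it was not tested.

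Tnfrsf1a (chr6:125349362-125362484, plus strand) and Ltbr (chr6:125306571-125313885, minus strand) lie 35.5 kb apart on chromosome 6, and both had values above 0 in GFP–TTP-AA against GFP–TTP cells. The 32 other tested genes within 1 Mb of Tnfrsf1a, Ltbr among them, had a median log2 fold change of 0.07. Of these 3 were higher (Pex5, Ptpn6 and Vwf) and 1 lower (Chd4), beside 5.39% and 4.9% of all genes. Fas (chr19:34290666-34327772, plus strand) had 9 tested neighbours with a median of 0.24. Ch25h and Lipn of these were higher and Kif20b lower, beside the same shares of all genes. Tnfrsf21 (chr17:43016555-43089189, plus strand) had 1 tested neighbour, at -0.23. The neighbours past the threshold are named because their counts are small, after their values were seen.

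**Figure D4:**
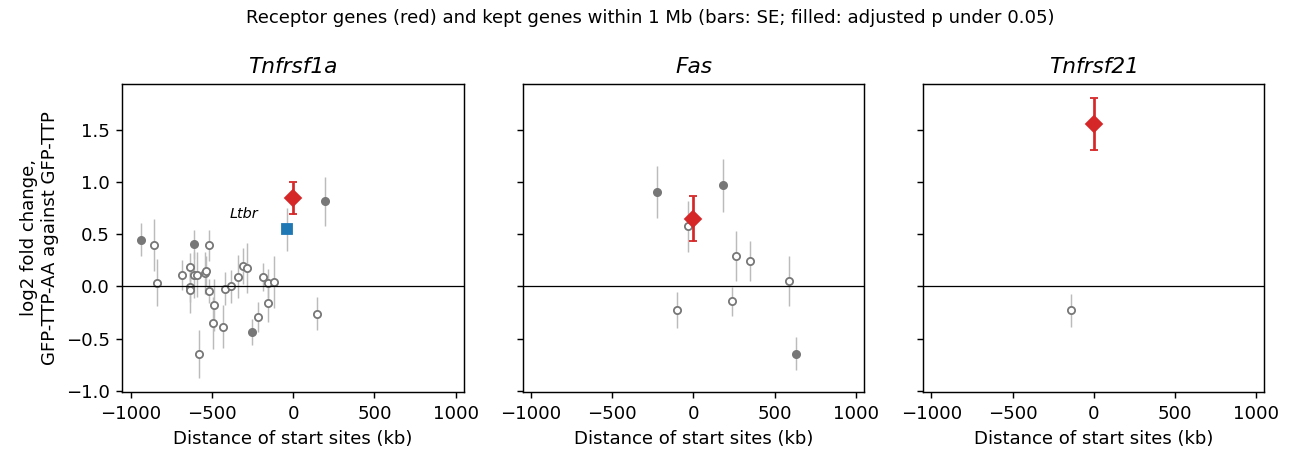
Log2 fold changes (bars: SE) of GFP–TTP-AA against GFP–TTP macrophages for Tnfrsf1a, Fas and Tnfrsf21 (red diamonds) and for kept genes within 1 Mb, by the distance between start sites in kb. Most neighbours of Tnfrsf1a scatter around 0, Ltbr (blue square) lies at 0.55, and Tnfrsf21 stands at 1.56 with 1 neighbour at -0.23.

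Around the receptors, 59 genes of 5 lists of ligands, other receptors, adaptors, shedding factors and NF-κB genes could be tested. In GFP–TTP against GFP-only cells 1 was higher and 2 were lower, in GFP–TTP-AA against GFP-only cells 3 were higher, and in GFP–TTP-AA against GFP–TTP cells 9 were higher and 1 was lower. The shares of all genes are those given above for each comparison.

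Of 9 ligands of these receptors 2 could be tested, Tnf and Tnfsf14 (LIGHT), and neither passed in any comparison. Tnf had levels of 11970 in the controls, 8362 after GFP–TTP and 7705 after GFP–TTP-AA expression. Its log2 fold change against GFP-only was -0.52 (SE 0.25, Wald adjusted p = 0.391) for GFP–TTP and -0.64 (SE 0.25, Wald adjusted p = 0.154) for GFP–TTP-AA. The Tnf values of GFP–TTP-AA cells thus lay below those of GFP-only cells, while the values of its receptor gene Tnfrsf1a lay above them, both short of the threshold.

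Of 6 other receptors of the superfamily tested, Tnfrsf13b (TACI, a receptor of the B cell factors BAFF and APRIL) fell in GFP–TTP against GFP-only cells (log2 fold change -0.88, SE 0.25, Wald adjusted p = 0.0257). It was higher in GFP–TTP-AA than in GFP–TTP cells (1.21, SE 0.25, Wald adjusted p = 7.37e-05). Eda2r (a receptor of ectodysplasin) was higher in GFP–TTP than in GFP-only cells (0.77, SE 0.21, Wald adjusted p = 0.0126).

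Of 31 receptor-proximal adaptors and regulators, Ripk3, a kinase of necroptosis, had the largest log2 fold changes in 2 of the 3 comparisons. Its level was 124 in the controls, 39.2 after GFP–TTP and 202 after GFP–TTP-AA expression. It fell by 1.66 on the log2 scale in GFP–TTP against GFP-only cells (SE 0.23, Wald adjusted p = 5.97e-10) and was 2.36 higher in GFP–TTP-AA than in GFP–TTP cells (SE 0.23, Wald adjusted p = 1.34e-21). Traf1, a TRAF that binds TNFR2 and CD40 complexes, was higher in GFP–TTP-AA cells by 0.89 (SE 0.23) against GFP-only and by 1.22 (SE 0.23) against GFP–TTP. Tnip1, a partner of the ubiquitin-editing protein A20, was higher by 0.75 (SE 0.18) and 0.61 (SE 0.18) in the same comparisons. Birc3 (cIAP2, a ubiquitin ligase of the TNFR1 complex) was 0.80 higher (SE 0.21) against GFP–TTP. Against GFP-only its log2 fold change was 0.62 (SE 0.21, Wald adjusted p = 0.0677). Traf2, the last of the 5 adaptors past the threshold in that comparison, was 0.51 higher (SE 0.16) and is named after its value was seen. The median of the list there was 0.19.

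The death domain adaptors Tradd, Fadd and Ripk1 and the initiator Casp8, which act directly at TNFR1 and Fas, did not pass in any comparison. Their log2 fold changes in GFP–TTP-AA against GFP–TTP cells were 0.19 for Tradd, 0.42 for Fadd, 0.36 for Ripk1 and 0.20 for Casp8. The inhibitor Cflar (cFLIP) had 0.57 with a Wald adjusted p of 0.0821. These 5 genes are named after their values were seen.

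Of 4 tested genes of receptor shedding, Adam17, the protease that cleaves TNF and both of its receptors from the cell surface, was higher in GFP–TTP-AA cells. The log2 fold change was 0.57 (SE 0.13, Wald adjusted p = 0.00243) against GFP-only and 0.38 (SE 0.13, Wald adjusted p = 0.0452) against GFP–TTP cells. Of 16 NF-κB subunits and targets, Bcl3 (0.74, SE 0.24) and Nfkb1 (0.44, SE 0.15) were higher in GFP–TTP-AA than in GFP–TTP cells. Bcl2l1, which encodes the survival protein Bcl-xL, was lower (-0.54, SE 0.17). The median of that list was 0.39, with 15 of 16 values above 0, beside 49.2% of all genes tested. Adam17 and Nfkb1 lost this call against GFP–TTP with chromosome medians subtracted and with adjustment over all 3 comparisons together, and Bcl2l1 lost it in the former. Rel, Rela, Sod2 and the adaptor Tank passed with chromosome medians subtracted, so that the NF-κB list then had 4 genes higher and 0 lower.

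**Figure D5:**
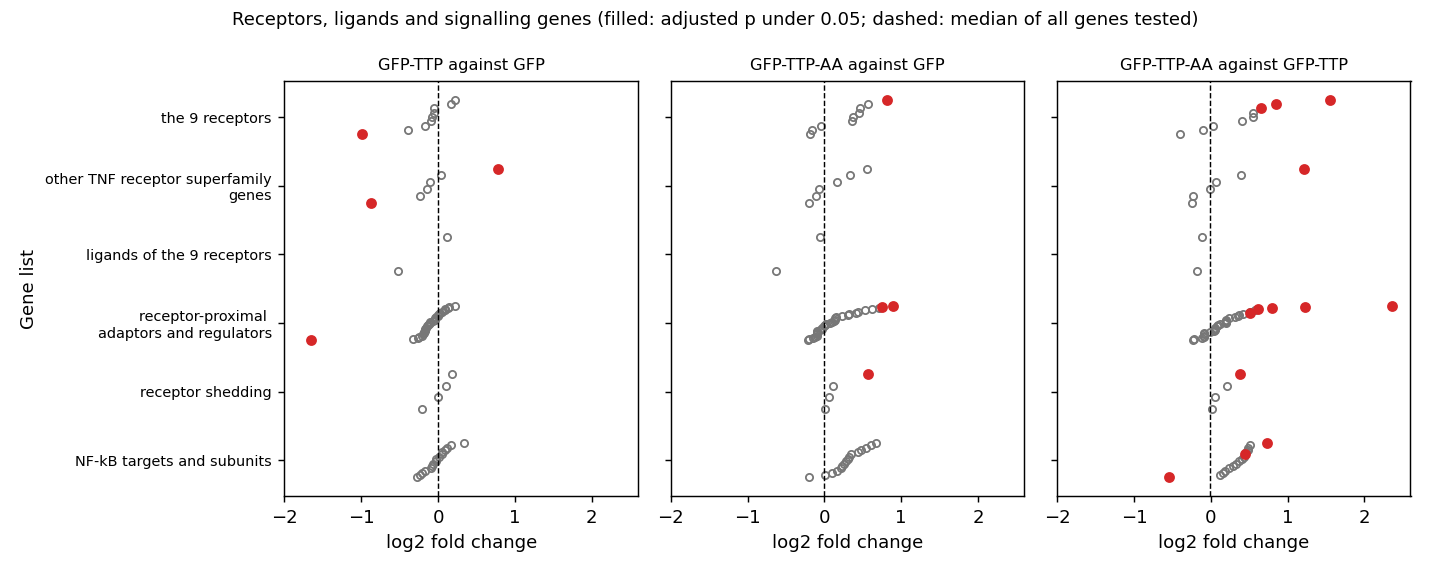
Log2 fold changes of the 9 receptors and of the tested genes of 5 lists in the 3 comparisons, filled red where the adjusted p is under 0.05, with a dashed line at the median of all genes tested. The adaptor at the far left of the first panel (-1.66) and at the far right of the last (2.36) is Ripk3.

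The genes most like each called receptor were found by the distance between their log2 fold changes over GFP-only cells, which rests on 3 conditions. The search took in 8439 genes (8440 for Tnfrsf21) whose fitted mean was 50 or more. Msr1, Raet1e and Ypel3 were nearest to Tnfrsf1a, at distances of 0.03 to 0.06. Mrpl52, Tnip1 and Hist1h4i were nearest to Fas (0.06 to 0.07). Gbp3, Ifi27l2a and Lgals9 were nearest to Tnfrsf21 (0.03 to 0.15). Of these genes Tnip1 alone is in the lists of the pathway.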

How the data were processed

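The 9 RiboSeq libraries were grouped by their titles, which give construct and replicate number, and the series describes the replicates as biological. Libraries of a condition came from the same line, so that p-values rest on spread between libraries within lines and not between lines. The authors' model was fitted to all conditions together, so that this spread is not that of a single line. The authors prepared ribosome-protected fragments by ARTseq, mapped the reads to mm10 with TopHat (2.0.12 in the submitters' processing notes), keeping up to 2 alignments, and fitted counts per gene with DESeq2 (1.6.3) with terms for library date and condition. Trim Galore and HTSeq are listed in these notes without a version. Whether counting used the strand is not given in the sources used here. The coding sequences of the receptors overlapped no exon of another gene. The authors' deposited signal per gene and library is a fitted value, as its log2 values, with an SD of 4.79, left a residual SD of 1.64e-15 after terms for condition and replicate number. Lines for 16921 genes were used, and 11 repeated lines were dropped. The authors' deposited comparison tables hold mean counts, log2 fold changes with their standard error, Wald statistics and p-values, of which only the standard error, on the log2 scale, was used.

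Size factors were medians of ratios over all genes. A level is the fitted value divided by the size factor, as a geometric mean over 3 libraries. Log2 fold changes were computed from the levels and divided by the deposited standard errors, with two-sided normal (Wald) p-values and Benjamini-Hochberg adjustment (threshold 0.05) over genes that had a standard error and a fitted mean of 10 or more. The table for GFP–TTP against GFP-only holds a standard error for 9938 of the 10102 kept genes. Named are the 9 receptors, Zfp36, at most 4 genes past the threshold per pathway list and comparison by the smallest p, and 3 genes of like pattern per called receptor. Members and lists were chosen with earlier results of these data known. Annotation was GENCODE vM21 on GRCm38. The steps were tested on simulated data and run in Python 3.11.15 with numpy 2.4.6, pandas 2.3.3, SciPy 1.17.1 and matplotlib 3.10.9. Alternatives for the filter, the scaling, the adjustment and the pseudocount are given in the closing section.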

Additional observations from a re-analysis of the deposited data

How the results depend on the processing

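No paired analysis was possible because the deposited values are fitted and hold no observed spread between libraries. The standard errors already come from a model with a library date term, whose place the replicate number takes, and a fit without it could not be made. For the same reason leaving out a library, a replicate block, edgeR and DESeq2 could not be fitted. Under the alternatives for filter, scaling, chromosome and adjustment no receptor that could be tested changed its side of the threshold. Tnfrsf1a in GFP–TTP-AA against GFP–TTP cells kept adjusted p-values between 1.31e-06 and 8.04e-06, and Fas between 0.00947 and 0.0489, so that its call is the one nearest to the threshold. With a minimum fitted mean of 50, Tnfrsf21 and Cd40 are not tested, the count of receptors is 0 in GFP–TTP against GFP-only and 2 in GFP–TTP-AA against GFP–TTP cells, and both calls of Tnfrsf13b are lost. With chromosome medians subtracted, Fas in GFP–TTP against GFP-only cells turned from 0.17 to -0.00865, and both values were far from the threshold. In GFP–TTP-AA against GFP–TTP cells the same setting raised Fas from 0.65 to 0.75. The count of pathway genes in GFP–TTP-AA against GFP-only cells rose from 3 to 5 (Ripk3 and Sod2 added) with size factors from genes fitted at 50 or more, with chromosome medians subtracted, and with adjustment over the 3 comparisons together. With a pseudocount of 10 the log2 fold change of Tnfrsf21 shrank to -0.63 in GFP–TTP against GFP-only and to 1.06 in GFP–TTP-AA against GFP–TTP cells. With replicates 1 and 2 alone the GFP-only level of Fas was 122 in place of 153 and that of Tnfrsf1b 942 in place of 1125. Read depth enters through the size factors and the standard errors, and reads per library were not analysed here.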
